A study of Mus musculus with 112 samples.

Results

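Among the 45281 probes of the array, which carry the names of 19057 genes, 4 probes of 4 genes are described here, those that were lowest in liver of mice given agonists of the peroxisome proliferator-activated receptors (PPARs) when compared with saline. They were chosen by their measured values, as the deepest falls from saline in these same liver arrays, so their liver differences are a description and carry no p-value. The array annotation names them as Hsd3b5 (ILMN_1234449), Serpina12 (ILMN_1218236), Cyp2c50 (ILMN_2996640) and Cyp2c37 (ILMN_2691060). All 4 were detected on every saline liver array and on no saline array of the brain. Every liver array of fenofibrate and tesaglitazar was lower than every saline array for each gene. Here and below, such separation is favoured by the choice of these probes as the deepest falls. Its share over all fitted probes was not counted. Under bezafibrate the differences were smaller, at -0.27 for Cyp2c50 and -0.24 for Cyp2c37 on the log2 scale. Intervals given below for liver differences of these genes describe the spread and are not read as tests.

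PPARs are nuclear receptors that bind fatty acids and related ligands. PPARα is abundant in hepatocytes, where its activation raises genes of fatty acid oxidation and lowers a set of other liver transcripts. Hsd3b5 is a member of the 3β-hydroxysteroid dehydrogenase family that in mouse liver acts as a ketosteroid reductase and is expressed mainly in males. Serpina12 encodes vaspin, a secreted serine protease inhibitor first described as an adipokine. Cyp2c50 and Cyp2c37 encode cytochrome P450 enzymes that oxidise arachidonic acid and other lipids, and both belong to the Cyp2c gene cluster on mouse chromosome 19.

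RNA of liver, prefrontal cortex and amygdala came from male C57BL/6J mice dosed by mouth once a day for 8 days with saline, fenofibrate at 150 mg/kg, tesaglitazar at 1.5 mg/kg or bezafibrate at 75 mg/kg. The agonists were suspended in saline with Tween-80, the labels name the control only as saline, and no genetic change is named for any group. Fenofibrate is a PPARα agonist, tesaglitazar acts on PPARα and PPARγ, and bezafibrate acts on all PPAR subtypes. The 12 groups held 9 or 10 arrays each, except tesaglitazar liver with 8, because 2 liver arrays, labelled saline 4 and tesaglitazar 6, match each other's group and were left out. The share of probes detected, that is with a detection p under 0.05, was 38.1 to 42.7% on the liver arrays, and the number of arrays limits the precision of every value. In liver, 19773 probes were detected on at least 9 arrays and were fitted. Alb, the gene of albumin, whose probe was dim in liver too, was detected on no brain array. Of the 10 hepatocyte markers that include it, 1 to 3 were detected on every array of each brain group. On no array of such a group were 3 to 6 of them detected. Of 8 neuronal marker genes, 7 were detected on every array of both brain regions, Snap25 being the exception. Mouse numbers run in blocks of consecutive numbers by treatment, within 1 to 20 and again within 21 to 40, so an order along the numbers and treatment cannot be told apart within either part.

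Hsd3b5 was high in saline liver and near or at background under tesaglitazar. In this whole tissue, fewer cells of a type and less RNA per cell cannot be told apart. Its log2 level over the 9 saline arrays had a lowest value of 11.72, a median of 12.40 and a highest value of 12.93. Under fenofibrate the lowest, median and highest were 4.54, 7.60 and 8.23 (n = 9), and the array of mouse 37 was not detected. Under tesaglitazar they were 4.17, 4.36 and 5.56 (n = 8), with detection on 3 of 8 arrays, those of mice 8, 10 and 29. Under bezafibrate they were 10.13, 11.25 and 12.42 (n = 9). No fenofibrate or tesaglitazar array reached the lowest saline array, while 5 of 9 bezafibrate arrays lay below it.

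The mean level of Hsd3b5 was 12.37 ± 0.39 (SD) with saline, 7.01 ± 1.22 with fenofibrate, 4.74 ± 0.62 with tesaglitazar and 11.46 ± 0.81 with bezafibrate. The log2 difference from saline was -5.36 ± 0.36 (SE) for fenofibrate, a 41.1-fold lower level. It was -7.63 ± 0.37 for tesaglitazar, or 198-fold lower, a size that is bounded by the background of the array because 5 of 8 arrays did not detect the probe. For bezafibrate it was -0.91 ± 0.36, or 1.88-fold lower. Each fold is on a scale with 16 intensity units added before the logarithm, which understates falls that end near background. In the lower part of the numbering, up to mouse 20, and in the upper part, the differences were -4.74 and -6.12 for fenofibrate, -7.46 and -7.79 for tesaglitazar, and -1.09 and -0.76 for bezafibrate.

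**Figure D1:**
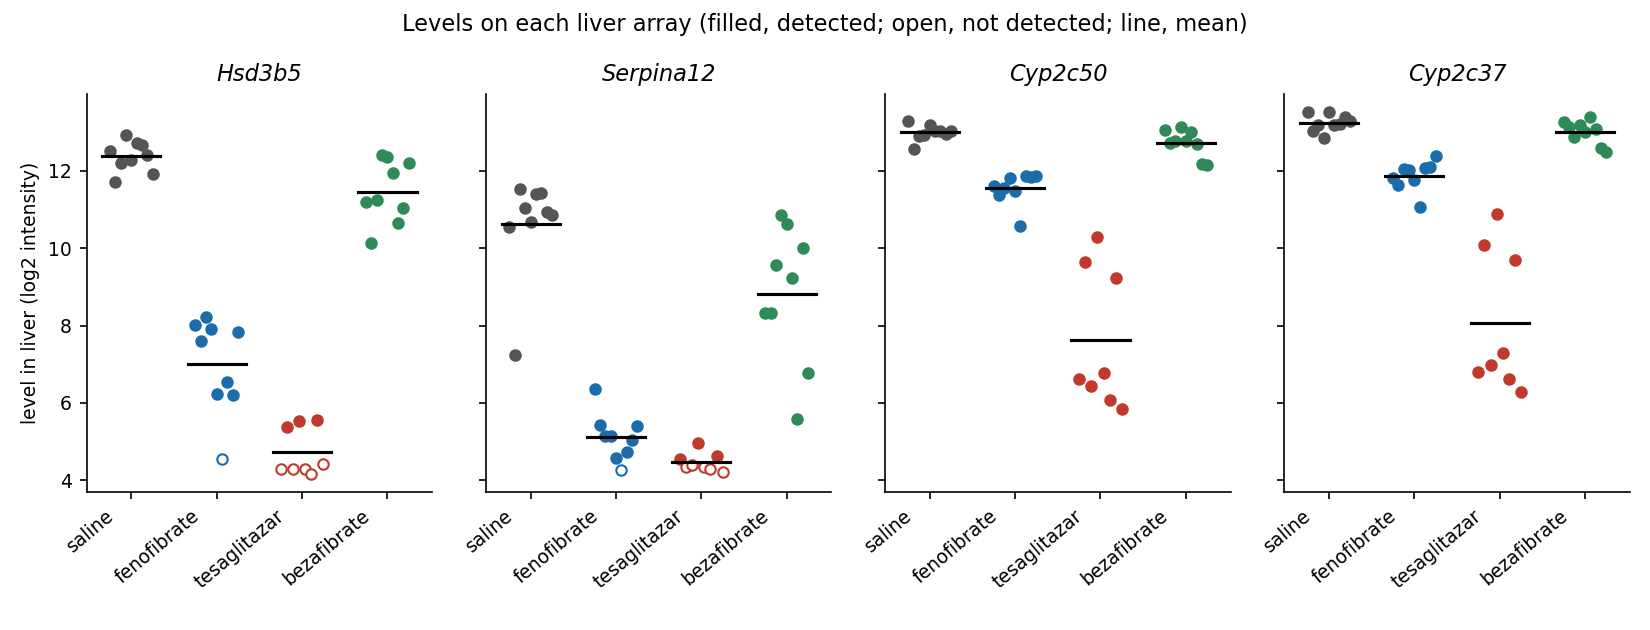
Log2 level of the 4 genes on each of the 35 liver arrays, by treatment, where filled points were detected, open points were not, and lines are group means. Cyp2c50 and Cyp2c37 fall into a lower set of 5 and a higher set of 3 tesaglitazar arrays, and Serpina12 has 1 low saline array at 7.23.

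Serpina12 was at levels close to background under both fenofibrate and tesaglitazar. Its log2 level in saline had a lowest value of 7.23, a median of 10.94 and a highest value of 11.52. The lowest of these was the array of mouse 2, and the next lowest was 10.54. Under fenofibrate the lowest, median and highest were 4.26, 5.15 and 6.37, with detection on 8 of 9 arrays. Under tesaglitazar they were 4.22, 4.38 and 4.97, with detection on 3 of 8 arrays, those of mice 7, 10 and 29. Bezafibrate gave a wide range of 5.59 to 10.85 with a median of 9.22. In that group mouse 33 stood at 5.59 and mouse 35 at 6.76, and the other 7 arrays lay between 8.32 and 10.85.

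All 9 fenofibrate and all 8 tesaglitazar arrays of Serpina12 lay below every saline array, mouse 2 included. Of the 9 bezafibrate arrays, 2 lay below the array of mouse 2 and 7 below the next lowest saline array. Mean levels were 10.62 ± 1.32 (SD) with saline, 5.12 ± 0.61 with fenofibrate, 4.47 ± 0.24 with tesaglitazar and 8.81 ± 1.76 with bezafibrate. The log2 differences from saline were -5.50 ± 0.50, -6.16 ± 0.52 and -1.82 ± 0.50 (SE), which are 45.3-fold, 71.4-fold and 3.52-fold lower. Without the saline array of mouse 2 they were -5.93, -6.58 and -2.24. The bezafibrate value differed between the mice numbered 1 to 20, at -0.82, and those numbered 21 to 40, at -2.62, and it was -1.41 without mouse 33.

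The pair of Cyp2c genes differed from Hsd3b5 and Serpina12 in keeping a high level under fenofibrate. Cyp2c50 had a lowest, median and highest log2 level of 12.56, 13.03 and 13.28 in saline, and of 10.57, 11.60 and 11.87 under fenofibrate. Under bezafibrate the 3 values were 12.15, 12.76 and 13.14. Cyp2c37 ran from 12.85 to 13.53 in saline, from 11.06 to 12.37 under fenofibrate and from 12.49 to 13.38 under bezafibrate. For each gene, every fenofibrate array was below every saline array, and 2 of 9 bezafibrate arrays, those of mice 34 and 35, were below the lowest saline array.

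Under tesaglitazar the levels of both Cyp2c genes fell into separate sets of arrays. Cyp2c50 lay between 5.85 and 6.78 in mice 7, 9, 26, 28 and 30, and at 9.63, 10.28 and 9.24 in mice 8, 10 and 29. Cyp2c37 lay between 6.27 and 7.29 in the first 5 of these mice and at 10.07, 10.88 and 9.70 in mice 8, 10 and 29. Both genes were detected on all 35 liver arrays, and none of the 8 tesaglitazar arrays overlapped the fenofibrate arrays. The higher arrays came from both parts of the numbering.

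The mean of Cyp2c50 was 12.99 ± 0.20 (SD) with saline, 11.55 ± 0.41 with fenofibrate, 7.62 ± 1.79 with tesaglitazar and 12.72 ± 0.35 with bezafibrate. That of Cyp2c37 was 13.24 ± 0.22, 11.87 ± 0.38, 8.07 ± 1.83 and 13 ± 0.30. For fenofibrate the log2 difference from saline was -1.44 ± 0.39 for Cyp2c50 and -1.37 ± 0.39 for Cyp2c37 (SE), or 2.71-fold and 2.58-fold lower. For tesaglitazar it was -5.37 ± 0.40 and -5.17 ± 0.40, or 41.4-fold and 36-fold lower. For bezafibrate it was -0.27 with a 95% interval from -1.05 to 0.52 for Cyp2c50, and -0.24 with an interval from -1.04 to 0.55 for Cyp2c37. The spread of these intervals is shared over the 4 treatments, and the tesaglitazar arrays widen it.

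The promoters of the 2 Cyp2c genes are shown because this pair had the most alike liver levels among the 4 genes. They are the 250 bases before the start of transcription, 5′ to 3′ on the plus strand, from RefSeq on build GRCm38.p6. Capitals mark bases that do not match the other gene in a global alignment. The window of Cyp2c50 is chr19:40089429-40089678 and that of Cyp2c37 is chr19:39992174-39992423.
Cyp2c50: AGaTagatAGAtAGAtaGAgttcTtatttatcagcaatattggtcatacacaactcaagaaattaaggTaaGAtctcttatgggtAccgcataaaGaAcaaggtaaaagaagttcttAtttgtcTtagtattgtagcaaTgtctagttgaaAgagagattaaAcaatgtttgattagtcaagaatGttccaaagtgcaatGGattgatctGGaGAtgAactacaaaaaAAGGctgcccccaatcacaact
Cyp2c37: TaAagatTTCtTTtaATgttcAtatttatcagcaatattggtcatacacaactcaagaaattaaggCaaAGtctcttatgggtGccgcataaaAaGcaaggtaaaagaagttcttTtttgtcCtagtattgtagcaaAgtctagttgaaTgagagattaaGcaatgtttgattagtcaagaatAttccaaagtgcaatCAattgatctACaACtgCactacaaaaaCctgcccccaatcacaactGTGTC
In this alignment 30 bases were mismatched, 10 positions were gaps and all others were identical. The promoters of 11 other Cyp2c genes matched that of Cyp2c50 at 147 to 168 bases. Cyp2c23 and Cyp2c54, the gene that lies between the pair, were not among them, so the likeness of their promoters was not tested. The unrelated promoter of Hsd3b5 matched at 152 bases, and that of Serpina12 at fewer than any of these. These unrelated promoters show what such an alignment gives without close relation. The letters TTCNNNGAA, a core bound by STAT factors, and AGGTCA, a core bound by nuclear receptors including PPARs, were searched on both strands. They occurred in 7.02% and 14% of the 32851 promoters of this length and in 0 of the 4 genes, which says only that these letters are not in these windows.

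The 4 genes led the lower end of the tesaglitazar comparison, where Hsd3b5, Serpina12, Cyp2c50 and Cyp2c37 ranked 1 to 4 from the lowest of 19773 probes. The next was ILMN_2691059, another probe of Cyp2c37, at -5.11, and then Serpina1e, a gene of the α1-antitrypsin family, at -5.02. In the fenofibrate comparison Serpina12 ranked 1 and Hsd3b5 ranked 2, ahead of Serpina1e at -3.63, while Cyp2c50 ranked 51 and Cyp2c37 ranked 67. Under bezafibrate Serpina12 ranked 1, followed by Tubb2b, a tubulin gene, at -1.28, and Hsd3b5 ranked 14. Cyp2c50 and Cyp2c37 ranked 802 and 1028 there. These ranks describe the values that chose the genes, and the order among the 4 turned with the processing. Without background correction the tesaglitazar difference was -4.21 for Serpina12, above -4.77 for Cyp2c50 and -4.69 for Cyp2c37, and the fenofibrate difference was -4.64 for Hsd3b5, below -3.99 for Serpina12.

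Over all liver probes, limma called 30% changed under fenofibrate, 46.3% under tesaglitazar and 3.22% under bezafibrate at a Benjamini-Hochberg adjusted p of 0.05. All 3 comparisons share the saline arrays, and no reading of the 4 probes against these shares is made, since the comparisons chose them. Called probes were split almost evenly by direction, with 2901 higher and 3037 lower under fenofibrate, 4447 and 4699 under tesaglitazar, and 305 and 331 under bezafibrate. With arrays centred on their medians in place of quantile normalisation, the higher share of the called probes was 74.6%, 62.9% and 64.9%, against 48.9%, 48.6% and 48%.

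The 2 left-out arrays match each other's group, so keeping both as labelled brings the saline and tesaglitazar means closer by construction. The tesaglitazar difference was then -6.10 for Hsd3b5, -4.89 for Serpina12, -4.31 for Cyp2c50 and -4.13 for Cyp2c37. The bezafibrate difference, taken from the same saline mean, was then 0.18 for Cyp2c50 and 0.19 for Cyp2c37, which turned its sign.

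Doses differed between the agonists, so their values stand side by side as levels at these doses. For each of the 4 genes, mean levels ran from saline through bezafibrate and fenofibrate to tesaglitazar. For Hsd3b5 the tesaglitazar level minus the fenofibrate level was -2.27 on the log2 scale, with a 95% interval from -3.01 to -1.53, and array 37 of fenofibrate lay within the tesaglitazar range. This value was -1.14 without background correction and -0.83 on the authors' processed values, both outside that interval, and 5 of 8 tesaglitazar arrays did not detect the probe. For Serpina12 the levels under these agonists overlapped, and the difference of -0.66 had an interval from -1.70 to 0.39. For Cyp2c50 and Cyp2c37 the same difference was -3.93 and -3.80. Fenofibrate minus bezafibrate was -4.45 for Hsd3b5, -3.68 for Serpina12, -1.17 for Cyp2c50 and -1.13 for Cyp2c37. Tesaglitazar minus bezafibrate was -6.72, -4.34, -5.10 and -4.93 for the same genes.

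Some arrays stood apart for several genes at once. The 3 tesaglitazar arrays with higher Cyp2c50 were also the ones on which Hsd3b5 was detected, at 5.37, 5.54 and 5.56 in mice 8, 10 and 29 against 4.17 to 4.42 in the other 5. The mean log2 level of 43 PPARα target genes was 11.19, 11.02 and 11.06 in mice 8, 10 and 29, and 11.42 to 11.58 in the other 5. Fabp3, a fatty acid binding protein gene from that list, was at 10.84, 9.84 and 11.29 in these 3 mice and at 12.09 to 12.58 in the others. In saline the mean of the target list was 8.73 ± 0.11, and under fenofibrate it was 10.54 ± 0.17 (SD), so the higher Cyp2c arrays were still above every fenofibrate array, the highest of which was 10.83. The share of probes detected was 40 to 40.7% on these 3 arrays and 40.2 to 42.7% on the other 5. The part of these differences in the Cyp2c levels was not tested.

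Among the fenofibrate arrays, that of mouse 37 had the lowest level of all 4 genes. It stood at 4.54 for Hsd3b5, 4.26 for Serpina12, 10.57 for Cyp2c50 and 11.06 for Cyp2c37. Its PPARα target mean of 10.83 was the highest of that group, and Fabp3 stood at 10.13 against 6.89 to 8.25 on the other 8 arrays. Without this array the fenofibrate difference was -5.05 for Hsd3b5, -5.39 for Serpina12, -1.32 for Cyp2c50 and -1.27 for Cyp2c37.

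**Figure D2:**
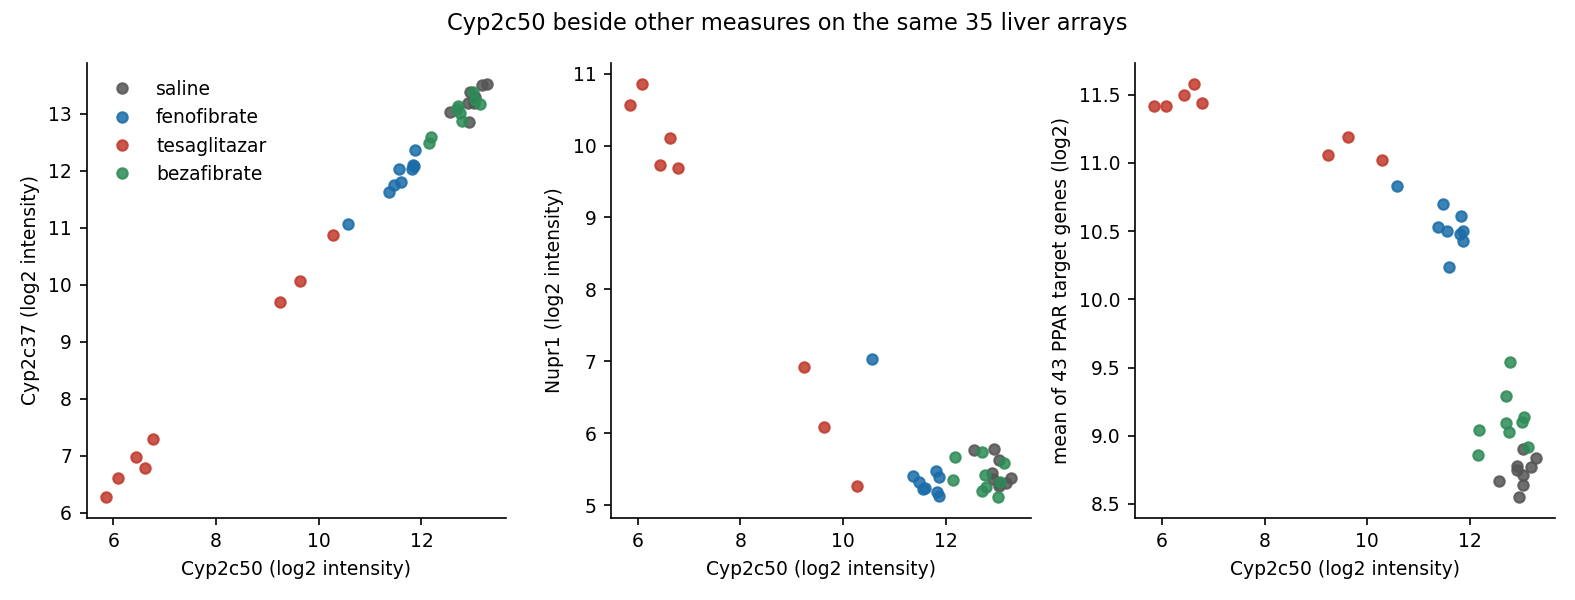
Log2 level of Cyp2c50 on the horizontal axis against that of Cyp2c37, that of Nupr1 and the mean of 43 PPARα target genes, on the same 35 liver arrays, coloured by treatment. Cyp2c37 lies along a line with Cyp2c50 (r = 0.998), and the 5 tesaglitazar arrays with Cyp2c50 at 6.78 or below carry Nupr1 at 9.69 to 10.86.

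Differences between group means chose the 4 genes, but deviations of single arrays from their treatment mean did not, so these were tested. Hsd3b5 and Serpina12 deviated together over the 35 arrays, with a Pearson r of 0.43 and a Spearman rho of 0.58. Permuting arrays within treatments gave two-sided p-values, adjusted over the 6 pairs of genes, of 0.00472 and 0.00108, and r was 0.45 without the 2 arrays farthest from the median of Hsd3b5. Within single treatments r was 0.65 for saline, 0.76 for fenofibrate, 0.63 for tesaglitazar and 0.44 for bezafibrate (n = 9, 9, 8 and 9). Under tesaglitazar only 3 of 8 arrays detected each gene and Serpina12 ran from 4.22 to 4.97, so that r is largely one of signal at background. On the authors' processed values r was 0.47, and the adjusted permutation p was 0.0529.

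Because the tesaglitazar arrays form separate sets for the Cyp2c genes, the pairs that include them were read over the 27 arrays of the other treatments. Cyp2c50 and Cyp2c37 deviated together there, with r = 0.90 and rho = 0.85 (adjusted permutation p = 6e-05 for both, from the smallest p that these permutations can give), and r = 0.82 without the 2 farthest arrays. For this pair, hybridisation of both probes to the same transcripts cannot be told apart from joint expression of the genes. Hsd3b5 and Cyp2c50 gave r = 0.45 with an adjusted permutation p of 0.0905, and r was 0.14 without the 2 farthest arrays, so the relation rests on those. The other 3 pairs gave r between 0.18 and 0.36 with adjusted permutation p-values from 0.0905 to 0.357. Over all 35 arrays, with the separate tesaglitazar sets included, Hsd3b5 gave r = 0.46 with Cyp2c50 and 0.42 with Cyp2c37 (adjusted permutation p = 0.00171 and 0.00334), with rho = 0.46 and 0.38 (adjusted permutation p = 0.0132 and 0.0351) and r = 0.46 and 0.41 without the 2 farthest arrays. Serpina12 gave r = 0.18 with Cyp2c50 and 0.12 with Cyp2c37 there (adjusted permutation p = 0.00994 and 0.0704), with rho = 0.26 and 0.13 (adjusted permutation p = 0.103 and 0.382) and r = 0.20 and 0.15 without the 2 farthest arrays. For Hsd3b5 with each Cyp2c gene, r was 0.96 within tesaglitazar, where the higher set of 3 arrays is also the one that detected Hsd3b5, and 0.64 within fenofibrate. Hsd3b5 with each Cyp2c gene thus passed the test by r and rho with the tesaglitazar arrays and by neither without them, and Serpina12 with Cyp2c50 passed by r alone, with those arrays.

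The probes most like each gene over the 35 liver arrays were found by Pearson correlation of log2 level, which here mostly follows the treatment means and is given with no p. Probes without a gene name and further probes of a gene already named were passed over. For Hsd3b5 the probes named, at ranks 1, 4 and 5, were Egfr, the epidermal growth factor receptor (r = 0.981), Fetub, a secreted liver protein (0.978), and Cyp2c70, a cytochrome of bile acid hydroxylation in mice (0.977). For Serpina12, at ranks 1, 3 and 5, they were Sdr9c7, a short-chain dehydrogenase (0.958), Pklr, the liver pyruvate kinase (0.953), and Col27a1, a collagen gene (0.945). For Cyp2c50 they were Cyp2c37 (0.998), its other probe (0.997), Cyp2c54 (0.977) and Car1, a carbonic anhydrase (0.977). For Cyp2c37, Saa4, a serum amyloid gene, followed Cyp2c54 and Car1 at 0.971. Hsd3b5 and Serpina12 correlated at 0.910 over these arrays.

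With treatment means removed, the named genes outside the 4 with the highest and the lowest correlation are given, again as a description without a p and chosen after their values were seen. The deviations of Hsd3b5 followed those of Egfr (r = 0.80) and ran against those of Ly6d, a lymphocyte antigen 6 family gene (-0.815). Those of Serpina12 followed Rarres1, a retinoic acid responsive gene (0.867), and ran against Atp4a, a proton pump subunit of the stomach (-0.811). On the saline array of mouse 2 and the bezafibrate arrays of mice 33 and 35, where Serpina12 was lowest in each group, Rarres1 stood at 8.41, 8.75 and 9.88 and Atp4a at 6.36, 6.03 and 5.70. On the other 15 arrays of these groups Rarres1 lay between 10.41 and 11.30 and Atp4a between 4.41 and 4.96. From saline to fenofibrate and tesaglitazar, group means ran the other way. Rarres1 was at 10.55, 11.63 and 11.86 there, while Serpina12 fell. Atp4a was at 4.85, 4.31 and 4.26, and 0 fenofibrate and 0 tesaglitazar arrays detected it.

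Deviations of Cyp2c50 followed those of Gulo, the last enzyme of vitamin C synthesis (r = 0.910), and ran against Nupr1, a stress-induced nuclear protein (-0.963). Without the tesaglitazar arrays these correlations were 0.714 and -0.689 over 27 arrays. Nupr1 was at 6.09, 5.27 and 6.92 in tesaglitazar mice 8, 10 and 29 and at 9.69 to 10.86 in the other 5. In saline it lay between 5.26 and 5.78. On the fenofibrate array of mouse 37, which had the lowest Cyp2c50 of its group, Nupr1 stood at 7.03 against 5.13 to 5.47 on the other fenofibrate arrays.

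Other probes of the same genes also had means below saline under every agonist. ILMN_2691059 of Cyp2c37, as bright in saline (13.20) as the described probe, differed by -1.33 under fenofibrate, -5.11 under tesaglitazar and -0.21 under bezafibrate. ILMN_1245217 of Cyp2c50, dimmer in saline (7.05), differed by -1.37, -2.65 and -0.20. The remaining probes, ILMN_2640989 of Cyp2c50, ILMN_2894828 of Cyp2c37 and ILMN_2591394 of Serpina12, had saline means of 4.68 to 5.39, were detected on 11 to 24 of 35 arrays and had differences from saline between -1.01 and -0.11. Hsd3b5 has 1 probe with a gene name. Probe sequences were not used here, and hybridisation between close relatives such as Cyp2c37, Cyp2c50 and Cyp2c54 cannot be told apart from expression of each.

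The deep tesaglitazar difference of the Cyp2c pair was shared by the gene between them on chromosome 19. Of 15 protein-coding Cyp2c genes in this order, 10 were tested, by the brightest probe of each. Cyp2c54, which lies between Cyp2c37 and Cyp2c50, was lower by a log2 difference of -4.37 ± 0.30 (SE) under tesaglitazar and -1.68 ± 0.29 under fenofibrate. Cyp2c70, the next tested gene after Cyp2c50, differed by -2.21 ± 0.12 and -1.42 ± 0.11, and Cyp2c29, an enzyme of xenobiotic metabolism, by -2.58 ± 0.20 and -1.36 ± 0.19. Of the 8 tested Cyp2c genes other than the pair, 6 were lower in limma under each of these agonists, 1 was higher under fenofibrate (Cyp2c39, by 0.41 ± 0.12) and 0 passed under bezafibrate, where Cyp2c29 differed by -0.52 ± 0.19 and Cyp2c70 by -0.30 ± 0.11.

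**Figure D3:**
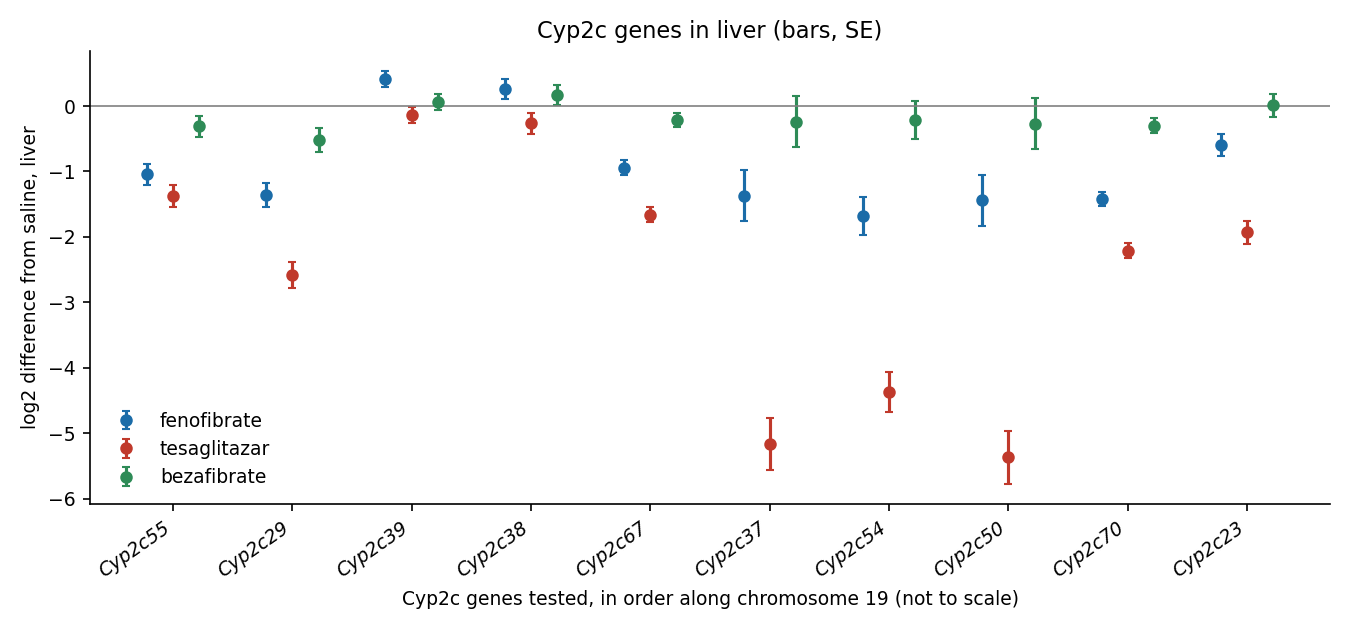
Log2 difference from saline in liver of the 10 tested Cyp2c genes, in their order along chromosome 19 and not to scale, with SE as bars, for the 3 agonists. Under tesaglitazar the 3 neighbours Cyp2c37, Cyp2c54 and Cyp2c50 lie at -5.17, -4.37 and -5.37, below the -2.58 to -0.14 of the other 7.

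The relatives of Hsd3b5 and Serpina12 were read in the same way. Among 7 Hsd3b genes on the array 3 were tested, each by its brightest probe. Hsd3b7, an enzyme of bile acid synthesis, was lower under each agonist, at -0.24 ± 0.07 for fenofibrate, -0.25 ± 0.08 for tesaglitazar and -0.34 ± 0.07 for bezafibrate, but with arrays centred on their medians 0 of the tested genes beside Hsd3b5 were called under any agonist. Hsd3b2 differed by -0.16 ± 0.15, -0.04 ± 0.15 and 0.06 ± 0.15, but its probes disagreed, since the dimmer ILMN_1214838 was lower, at -0.60 ± 0.15 for fenofibrate and -2.02 ± 0.16 for tesaglitazar. Of 15 tested Serpina genes other than Serpina12, 8 were lower and 1 higher under fenofibrate, 11 were lower and 1 higher under tesaglitazar, and 0 changed under bezafibrate. Serpina1e was lowest among them, at -3.63 ± 0.42 and -5.02 ± 0.43, and Serpina7, the thyroxine-binding globulin, rose by 0.70 ± 0.16 and 0.79 ± 0.17. Their median differences were -0.35 and -0.93, against -0.01 for all 10541 genes tested. The count lower under fenofibrate was 5 with both left-out arrays kept, its median was -0.21 under median centring, and the tesaglitazar median was -0.43 on the authors' processed values. The Serpina1 genes are near-identical copies that the probes may not separate.

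Hsd3b5 belongs to the liver genes that are higher in males, and most of the other genes of that list moved the same way. The members and lists were chosen with earlier results of these data known, so these counts are no independent evidence. Of 17 tested male-biased genes other than Hsd3b5, 12 fell and 2 rose under fenofibrate, and 13 fell and 3 rose under tesaglitazar, with median differences of -0.78 and -1.38. The count lower under fenofibrate was 9 under median centring, 9 with both left-out arrays kept and 8 in the mice numbered 1 to 20. Serpina1e, at -3.63 under fenofibrate and -5.02 under tesaglitazar, and Egfr, both described above, are also on this list. Mup21, a major urinary protein, was lower at -1.72 and -3.77. C6, a complement component also counted among the acute phase and complement genes below, was at -1.53 and -3.10, and Selenbp2, a selenium-binding protein, at -1.18 and -2.19. Of 6 major urinary protein genes, some of which are on the same list, 5 fell under each of these agonists and 0 under bezafibrate, and the count for fenofibrate was 3 under median centring. The genes that rose under both, named after their values were seen, were Cyp4a12a and Cyp4a12b, ω-hydroxylases of fatty acids, by 1.03 and 1.73 under fenofibrate and 1.07 and 1.42 under tesaglitazar. Under bezafibrate 1 gene fell, the fatty acid elongase Elovl3 by 0.96, and the 2 Cyp4a12 genes rose. With both left-out arrays kept as labelled 0 rose there, and in the mice numbered 21 to 40 0 rose and 0 fell.

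Female-biased genes moved in the other direction. Of 10 tested, 7 rose and 0 fell under fenofibrate, and 8 rose and 0 fell under tesaglitazar, with median differences of 1.29 and 1.34, which were 0.81 and 0.71 on the authors' processed values. Cyp2b9, a cytochrome P450 of female mouse liver, rose by 6.17 and 6.79 from a saline level at which 2 of 9 arrays detected it, and Cyp2a4, a steroid hydroxylase, by 3.42 and 4.06 from a level detected on 5 of 9. Acot3, a peroxisomal thioesterase that is also on the list of PPARα targets, rose by 5.07 and 5.60 and was the 1 gene of this list that rose under bezafibrate, by 1.86, a count that was 0 with both left-out arrays kept as labelled and 0 in the mice numbered 21 to 40. Under fenofibrate and tesaglitazar the medians of both lists kept these directions under each alternative tried, both parts of the numbering among them and leaving out single arrays not among them.

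**Figure D4:**
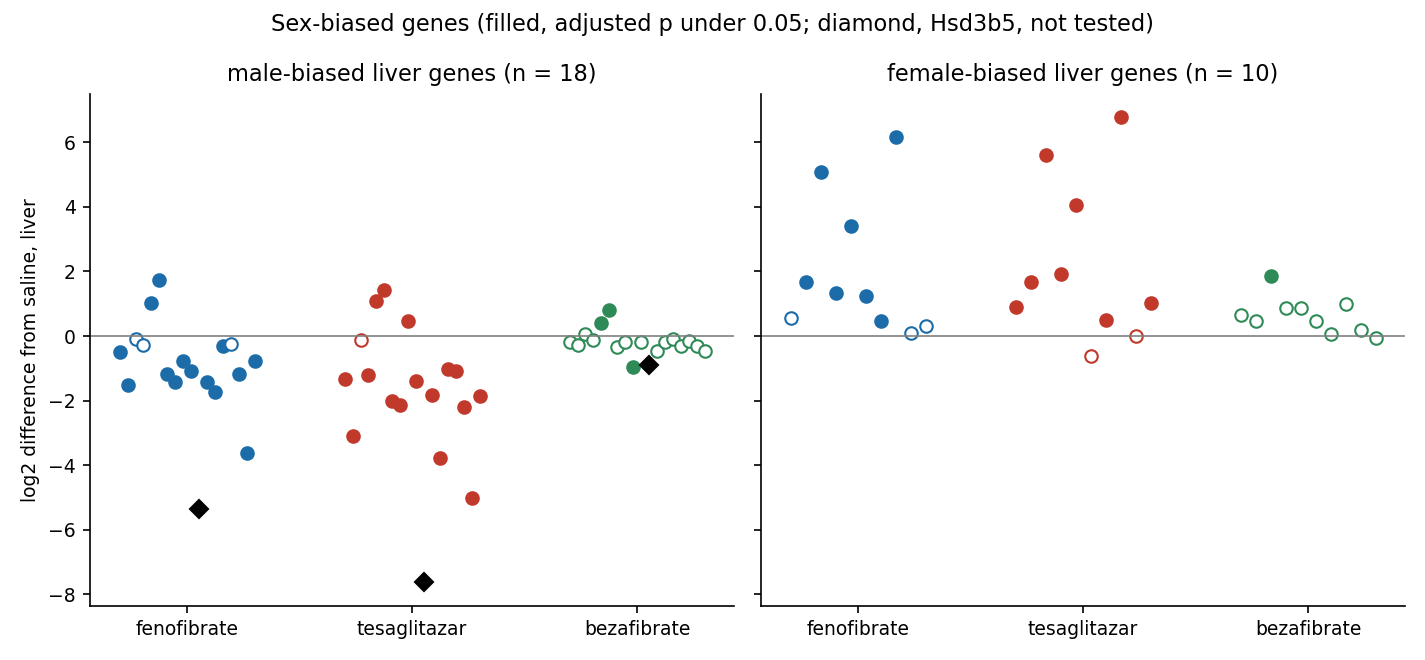
Log2 difference from saline in liver of 18 male-biased and 10 female-biased genes under each agonist, where filled points had an adjusted p under 0.05 in limma, open points did not, and the diamond is Hsd3b5, which was not tested. Hsd3b5 is the lowest male-biased gene under fenofibrate and tesaglitazar, at -5.36 and -7.63.

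Other lists give the setting in which the 4 genes were lower. Of 43 tested PPARα targets, 39 rose and 0 fell under fenofibrate, 42 rose and 1 fell under tesaglitazar, and 10 rose and 0 fell under bezafibrate, a count that was 1 when both left-out arrays were kept as labelled. Of 28 drug-metabolising cytochromes other than the pair, 14 fell and 7 rose under fenofibrate, with 8 lower under median centring and 7 with both arrays kept, and 18 fell and 5 rose under tesaglitazar. Of 34 acute phase and complement genes, 25 fell under fenofibrate, with 19 lower under median centring and 21 with both arrays kept. Under tesaglitazar 30 fell, and C9, a pore-forming complement component, fell by 3.33. Of 26 genes of amino acid catabolism and the urea cycle, 16 fell under fenofibrate, which was 8 with both arrays kept, and 23 under tesaglitazar. Of 15 genes of bile acid synthesis, 5 fell and 2 rose under fenofibrate, with a median of -0.11, and 9 fell and 2 rose under tesaglitazar. Of 21 genes of fatty acid and sterol synthesis, 11 rose and 2 fell under fenofibrate, and 15 rose and 1 fell under tesaglitazar. Under bezafibrate at most 1 gene of each of these 5 lists fell.

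Marker genes of cell types were read beside these results. Of 10 hepatocyte markers, 6 fell under fenofibrate, 7 under tesaglitazar and 0 under bezafibrate, and their summed log2 level was 117.03 to 120.84 with saline, 113 to 115.71 with fenofibrate, 110.84 to 114.22 with tesaglitazar and 116.34 to 118.74 with bezafibrate. The Alb probe, with a saline level of 6.85, differed by -1.05 and -1.04 under the first pair of agonists. Of 5 tested Kupffer cell markers, 2 fell under each. The summed level of all 6 on the array was 37.9 to 44.5 in saline and 36.4 to 39.6 under tesaglitazar, with Cd5l, which is in the sum, detected on no array of either group. All 3 erythroid markers fell under tesaglitazar, with a summed level of 34.6 to 36.6 in saline and 29.8 to 33.6 under tesaglitazar. Adipocyte markers, read because fat expresses Serpina12, did not pass the detection filter for any of 4 genes, and Plin1 and Retn were detected on no liver array. The part of these markers in the differences of the 4 genes was not tested.

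In the brain the 4 genes stayed at background in every group. In prefrontal cortex 0 of 38 arrays detected any of them, with log2 levels from 4.14 to 4.56. In amygdala 0 of 37 arrays detected Hsd3b5, Cyp2c50 or Cyp2c37, and 1 of 37 detected Serpina12, the tesaglitazar array of mouse 30 at 4.67. Deposited intensities of the 4 probes were between 77.9 and 110 on all 75 brain arrays, whereas their saline liver medians were 5420, 1800, 7290 and 8860. None of the 4 passed the filter of detection on 9 arrays in either region, so they could be tested only with that filter left off.

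**Figure D5:**
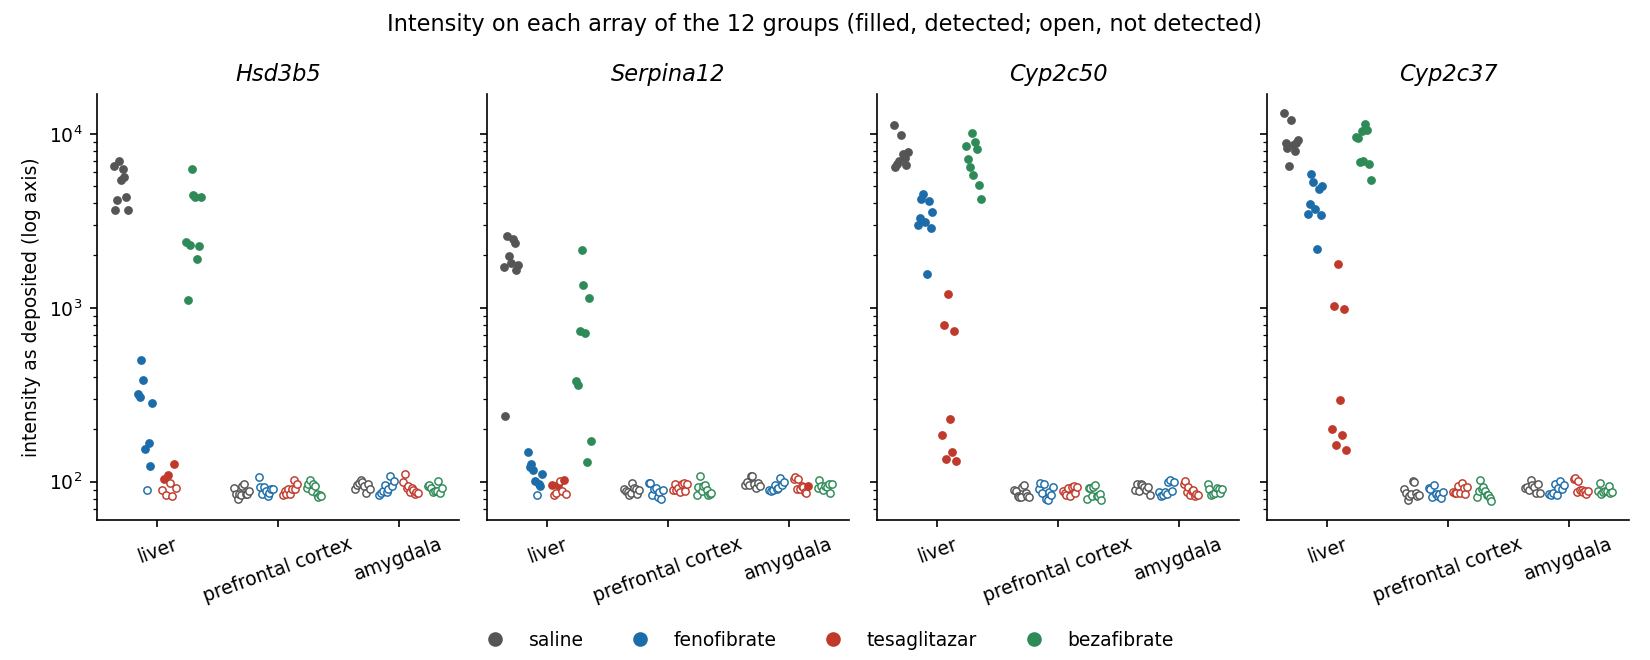
Intensity as deposited, on a log axis, of the 4 genes on each array of the 12 groups, where filled points were detected and open points were not. Of the 75 brain arrays 1 detected a gene of the 4, and the brain intensities lie between 77.9 and 110.

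The brain arrays took no part in the choice of the genes, so limma tests are given for them. With all 45281 probes fitted, 0 of the 4 genes were called in any of the 6 comparisons of an agonist with saline, where 2.26% of probes were called for fenofibrate in prefrontal cortex, 0.00442% for bezafibrate, 0% for tesaglitazar and 0% for each agonist in amygdala. Over the 24 values, 0 had an unadjusted p under 0.05. The smallest adjusted p was 0.534, for Serpina12 under fenofibrate in prefrontal cortex at -0.06 ± 0.04 (SE). The 95% intervals of all 24 lay between -0.15 and 0.14 on the log2 scale, which measures signal at background rather than transcript. Between amygdala and prefrontal cortex under saline, the differences of the 4 genes ran from -0.04 to 0.04 with adjusted p-values in limma from 0.387 to 0.930.

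The gap between liver and brain under saline can be given as a lower bound, with saline arrays of the 3 tissues normalised together and the lowest detected signal of each brain array taken as the floor. Against amygdala, liver was at least 226-fold higher for Hsd3b5, 79.8-fold for Serpina12, 323-fold for Cyp2c50 and 374-fold for Cyp2c37 (9 arrays each). Against prefrontal cortex (10 arrays) the bounds on the log2 scale were 7.77, 6.27, 8.29 and 8.50. Under tesaglitazar, Hsd3b5 and Serpina12 in liver approached the brain range, with 5 of 8 liver arrays not detected for each gene, while Cyp2c50 and Cyp2c37 stayed detected on all 8.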

How the data were processed

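RNA of liver, prefrontal cortex and amygdala was hybridised to Illumina bead arrays, of which 112 were mapped to the 12 groups by their labels. The authors deposited 1 intensity and 1 detection p-value per probe and array, per the file headers, and a second table of processed log2 values, as deposited, whose transformation is not stated. The submitters' processing notes name lumi, with its version not given in the sources used here. A further 8 array columns matched no sample and were not used. The names of genes come from the platform annotation, which gives 1 gene for 34885 probes, several for 18 and none for 10378.

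From the intensities, background was corrected with the detection p-values as in neqc of limma 3.58.1 (R 4.3.3), 16 was added, arrays were quantile normalised within each tissue, and log2 was taken. Probes with a detection p under 0.05 on at least 9 arrays were fitted with lmFit and eBayes on all 4 treatments of a tissue, with Benjamini-Hochberg adjustment at 0.05. The fitting was tested on simulated data. The 2 liver arrays labelled saline 4 and tesaglitazar 6 were left out. Deviations from treatment means were tested with 1e+05 permutations within treatments. Promoters were aligned globally with Biopython 1.88 (match 1, mismatch -1, gap opening -2, gap extension -0.5), and figures were drawn with matplotlib 3.10.9 (Python 3.11.15).

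The 4 genes, the gene lists and the rule for named genes were chosen with earlier results of these data known. The rule names the 4 genes, the 3 most like each among probes with a gene name, the next probe in each ranking and up to 4 genes with the largest called difference per list. A gene with several probes was read by its brightest probe. Alternatives were the 2 arrays kept, no background correction, an offset of 50, median centring, joint normalisation of the tissues, the processed table, each part of the mouse numbering or that part as a block, no detection filter, robust eBayes, and leaving out each array.

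The labels number the arrays of every tissue from 1 to 40, read here as the number of the mouse. Over 35 pairs of prefrontal cortex and amygdala arrays with the same number, deviations from group means correlated at a median of 0.0623, with 15 pairs over 0.1, against -0.000336 for different numbers.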

Additional observations from a re-analysis of the deposited data

Results flagged for a closer look

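Of 48 groups of array values, 4 genes in each of the 12 groups, 5 held an array whose distance from its nearest neighbour was large for the range of the group by Dixon's 95% criterion, and chance gives about 1 in 20. In liver, Serpina12 on the saline array of mouse 2 was at 7.23, with the nearest array at 10.54. Cyp2c50 on the fenofibrate array of mouse 37 was at 10.57, with the nearest at 11.37.

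The other 3 were brain values near background. In prefrontal cortex, Cyp2c50 on the tesaglitazar array of mouse 7 was at 4.38 against 4.28 for the nearest. In amygdala, Serpina12 on the tesaglitazar array of mouse 30 was at 4.67 against 4.38, and Hsd3b5 on the bezafibrate array of mouse 33 was at 4.51 against 4.34. Of these, only the Serpina12 value was detected.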

How the results depend on the processing

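Of 606 alternative values of 48 results, 562 kept their direction and stayed within the replicate spread or on the same side of the threshold. Of those 562, 450 were log2 differences of the 4 genes, whose direction is favoured by the choice of the probes. The sign turned in 2 of the 606. The 2 were the bezafibrate differences of Cyp2c50 and Cyp2c37, at 0.18 and 0.19 with both arrays kept as labelled, where the tesaglitazar differences of Hsd3b5, Serpina12, Cyp2c50 and Cyp2c37 were -6.10, -4.89, -4.31 and -4.13 and 286 probes were called under bezafibrate. Without background correction the difference from saline was -3.99 for Serpina12 under fenofibrate, and -5.79 for Hsd3b5 and -4.21 for Serpina12 under tesaglitazar. Between agonists, Hsd3b5 was then at -1.14 for tesaglitazar minus fenofibrate and -4.90 for tesaglitazar minus bezafibrate, and Serpina12 at -2.41 for fenofibrate and -2.63 for tesaglitazar minus bezafibrate. With an offset of 50, tesaglitazar gave -6.43 for Hsd3b5 and -4.86 for Serpina12, and -5.53 for Hsd3b5 minus bezafibrate. On the processed table, fenofibrate gave -4.36 for Hsd3b5 and -3.47 for Serpina12, and tesaglitazar -5.20 and -3.61. There, tesaglitazar minus fenofibrate was -0.83 for Hsd3b5, fenofibrate minus bezafibrate -3.47 and -1.99, and tesaglitazar minus bezafibrate -4.31 and -2.13 for Hsd3b5 and Serpina12. In the mice numbered 21 to 40, fenofibrate minus bezafibrate was -5.36 for Hsd3b5. The cause was not tested, except for what holds by construction. A larger offset or no background correction raises values near background. Keeping the 2 arrays, which match each other's group, brings the saline and tesaglitazar means closer.

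The probes called under bezafibrate, 636 in all, were 251 with each array centred on its median, 264 in the mice numbered 1 to 20 and 65 in those numbered 21 to 40, and those under fenofibrate, 5938 in all, were 3483 and 3922 in the same parts, which hold fewer arrays. With median centring the lower bounds of liver over prefrontal cortex and amygdala were 8.48 and 8.51 for Cyp2c50 and 8.72 and 8.76 for Cyp2c37 on the log2 scale. On the processed table the correlation of deviations was 0.47 for Hsd3b5 with Serpina12, 0.24 with Cyp2c50 and 0.16 with Cyp2c37, and 0.16 for Serpina12 with Cyp2c50 (adjusted permutation p = 0.0529, 0.0529, 0.0969 and 0.0841). Under the main processing, not the processed table, the last 3 pairs without tesaglitazar gave 0.45, 0.33 and 0.36 (adjusted permutation p = 0.0905, 0.196 and 0.0905). With means of treatment and numbering part removed, Serpina12 with Cyp2c50 gave 0.16 (permutation p = 0.0664). Leaving out each array moved Serpina12 under bezafibrate between -2.24 and -1.41 and Cyp2c50 under bezafibrate between -0.32 and -0.20, and moved no liver difference from saline by over 1.5 times.

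With mouse number as a replicate block between amygdala and prefrontal cortex, 0 of the 4 genes passed the filter. With the filter left off and the block, differences ran from -0.05 to 0.06 with adjusted p-values in limma from 0.301 to 0.982, and 0 were called, as without the block. Values near background limit the folds of Hsd3b5 and Serpina12 under tesaglitazar, and each gene was not detected on 5 of 8 arrays there.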
